A study of Caenorhabditis elegans with 15 samples.

Results

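FBXA-215, FBXA-192, FBXA-210 and FBXA-158 are *C. elegans* F-box proteins of the A2 family, and their 4 genes were followed here by symbol among the 21882 genes counted in young adults. F-box proteins are the substrate adaptors of SCF (Skp, Cullin, F-box) ubiquitin ligases: the F-box holds the adaptor on a Skp1-like protein, SKR-1 in worms, and through it on the cullin CUL-1 and the RING protein RBX-1, while another domain recruits the protein to be marked with ubiquitin. A2 proteins carry, ahead of the F-box, a helix-turn-helix (HTH) domain derived from the transposase of a Tc1/mariner transposable element, and behind it an FTH domain that is thought to bind substrates. *fbxa-215*, *fbxa-192* and *fbxa-210* are expressed in the germ line, whereas *fbxa-158* is known as an intestinal gene that promotes heat tolerance within the intracellular pathogen response. The question followed here is what these 3 paralogs do when *fbxa-215* is lost. The paper counts further A2 genes in *C. elegans*, which were not set apart here.

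Whole young adults of 2 strains grown on *E. coli* HB101 were sequenced: *fbxa-215(syb4404)* mutants, strain SX3678, with 4 libraries at 20 °C and 3 at 25 °C, and wild-type N2, with 4 libraries at each temperature. Every animal carried intact *fbxa-192* and *fbxa-210*, and the mutants are 1 line with 1 allele, in which the whole coding sequence of *fbxa-215* is deleted, outcrossed to N2. Animals at 25 °C were collected 36 h after plating and those at 20 °C after 48 h, as separate batches, so temperature cannot be told apart from hours of growth and batch. The 15 libraries held 10842750 to 28391911 estimated counts, and the deepest, replicate 4 of the mutants at 20 °C, exceeded every other library. The study's methods call the replicates biological, and neither they nor the labels say whether each was a separate culture, so p-values measure the spread between these samples. Germ line markers were present in every library (10 of 10 genes, summed level 2531 to 3655 CPM, the count scaled to the size of the library), as were oocyte, sperm, intestine and muscle markers. Embryo markers summed to between 6.73 and 14.7 CPM.

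The 4 genes are dispersed in the genome. In WBcel235 *fbxa-215* (WBGene00012879) lies on chromosome IV from 13665364 to 13666909 on the minus strand, *fbxa-192* (WBGene00010212) on V from 17640672 to 17650527 on the minus strand, *fbxa-210* (WBGene00012565) on V from 18125375 to 18127205 on the plus strand, and *fbxa-158* (WBGene00015602) on II from 1619814 to 1621280 on the minus strand. *fbxa-192* and *fbxa-210* are 474848 bp apart. The predicted proteins are of like length, with 392 residues for FBXA-215, 401 for FBXA-192, 412 for FBXA-210 and 393 for FBXA-158. *fbxa-192* spans far more of the genome than the others because 1 intron is 8177 bp long, whereas the introns of the other 3 genes are at most 77 bp in their longest transcripts. A second transcript of *fbxa-210* starts further upstream and holds an intron of 326 bp. All 4 genes hold an internal coding exon of exactly 84 bp, as do 32 of 166 other *fbxa-* genes with annotated coding exons (19.3%) and 2.38% of 19467 other protein-coding genes. No member overlaps another annotated gene, so the lack of strand information in these libraries does not mix their counts with those of an antisense gene. *fbxa-210* has *fbxa-107* 140 bp away, and *fbxa-158* has 5 other *fbxa-* genes within 20 kb.

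Oligonucleotides designed for these genes are shown because they give the sequence by which each is detected or cut: primers that measure *fbxa-215* RNA by RT-qPCR, and pairs of guide RNAs with which *fbxa-192* and *fbxa-210* were mutated in strains not analysed here. They are written 5′ to 3′, with U or T as in the list of oligonucleotides, and nothing in them is marked by capitals.
fbxa-215 forward primer: cgcgatgttctcaccaattc
fbxa-215 reverse primer: aatgactgtccgatggtgaag
fbxa-192 guide 1: agcgauauugaagaucuugg
fbxa-192 guide 2: gaaucuucucaugcucugcg
fbxa-210 guide 1: attcataggaaatgcatgct
fbxa-210 guide 2: ttcatcatcgaagctcacag

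The deleted gene was first checked in every library. At 20 °C *fbxa-215* had 0, 2, 0 and 0 counts in the mutants (replicates 1 to 4), against 2297, 2031, 1567 and 1999 counts in N2. At 25 °C it had 0, 0 and 0 counts in the mutants, against 2169, 1364, 1504 and 1850 counts in N2. The strains did not overlap, as for 21.2% of genes at 20 °C and 24.7% at 25 °C, and every library matched its strain label. In CPM, *fbxa-215* averaged 0.0378 ± 0.0757 in mutants and 159.7 ± 10.2 in N2 at 20 °C (SD, n = 4 each). With 2 counts in all mutant libraries, the level in N2 at 20 °C was 5447 times that in mutants, with a 95% interval of 1507 to 44990 by the exact binomial method, which covers counting error only. At 25 °C the mean was 133 ± 8.22 CPM in N2 (SD, n = 4), and the mutants were at least 534-fold lower, taking a floor of 3 counts in each mutant library. The fall passed edgeR's quasi-likelihood test at both temperatures (FDR = 7.16e-11 at 20 °C and 4.38e-12 at 25 °C). *fbxa-215* was the only one of the 3 members tested that passed (FDR under 0.05), at either temperature, where 13.5% of 13127 genes passed at 20 °C and 12.1% of 13510 genes at 25 °C.

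**Figure D1:**
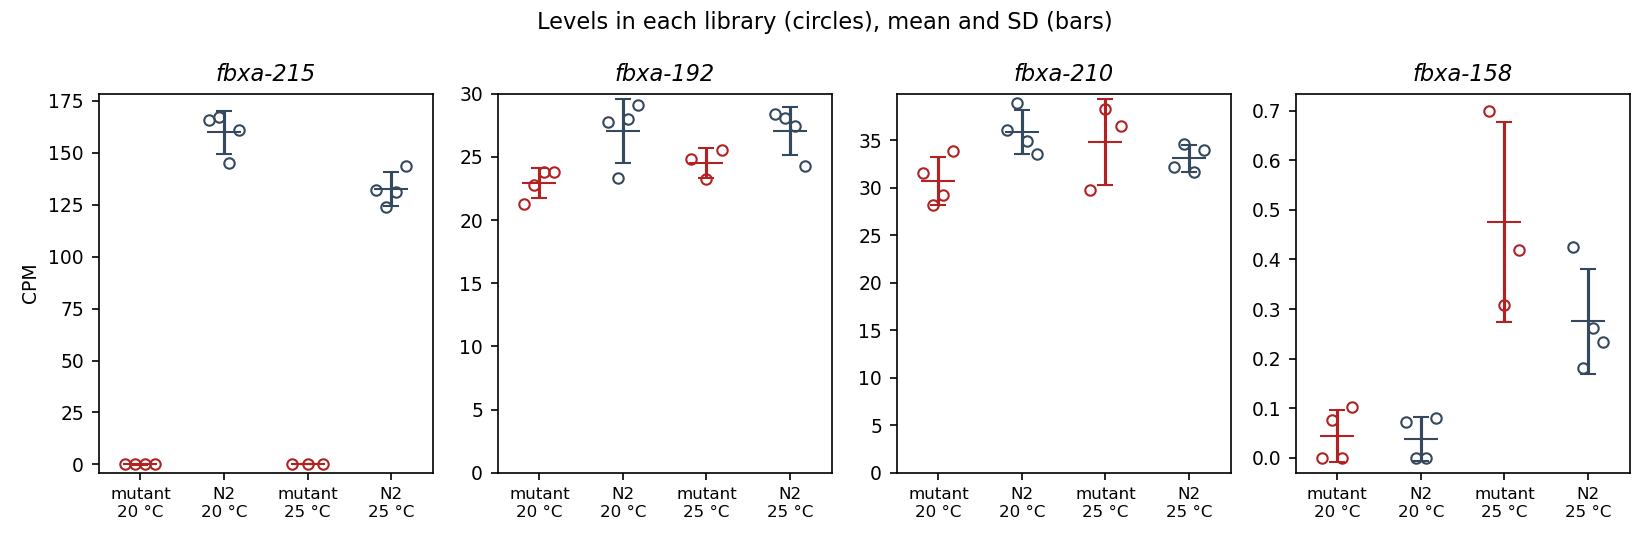
Level of each gene in CPM (vertical axis, a separate scale for each gene) in the 15 libraries, grouped by strain and temperature. Circles are libraries, and bars are the mean and SD of the 4 libraries of a group (3 for mutants at 25 °C). *fbxa-215* was at or near 0 in the 7 mutant libraries, *fbxa-192* and *fbxa-210* overlapped between strains at both temperatures, and *fbxa-158* stayed below 1 CPM.

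*fbxa-192* was not higher in the mutants at either temperature. At 20 °C it had 21.3, 22.8, 23.8 and 23.8 CPM in mutants, against 27.7, 23.3, 28.0 and 29.1 CPM in N2. N2 replicate 2 lay within the range of the mutants, and the other 3 N2 libraries lay above it. The mutant mean of 22.9 ± 1.19 CPM was below the N2 mean of 27.1 ± 2.56 CPM (SD, n = 4 each), a log2 fold change of -0.22 with a 95% interval of -0.43 to -0.02, which did not pass the test over all genes (FDR = 0.129 by edgeR, unadjusted p = 0.0368, where 32.3% of genes had an unadjusted p under 0.05). The exact permutation test of log2(CPM + 1), 2-sided, gave p = 0.0857, where 0.0286 is the smallest p that 4 libraries against 4 allow. At 25 °C *fbxa-192* had 24.8, 23.2 and 25.6 CPM in mutants, against 28.4, 28.1, 27.4 and 24.3 CPM in N2. Again 1 N2 library, replicate 4, lay among the mutants. The log2 fold change was -0.14, with an interval of -0.36 to 0.07 (FDR = 0.369 by edgeR, and p = 0.114 by the exact permutation test). The upper ends of these intervals correspond to 0.989 times the N2 level at 20 °C and 1.05 times at 25 °C.

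*fbxa-210* gave estimates of opposite sign at the 2 temperatures, neither of them past the test. At 20 °C it had 31.6, 28.2, 29.3 and 33.9 CPM in mutants, against 36.1, 39.0, 34.9 and 33.5 CPM in N2. The groups overlapped by 1 library on each side, the deepest mutant library being the highest of its group. The log2 fold change was -0.21, with an interval of -0.39 to -0.02 (FDR = 0.118 by edgeR, unadjusted p = 0.0315, and p = 0.0571 by the exact permutation test). At 25 °C *fbxa-210* had 29.7, 38.3 and 36.5 CPM in mutants, against 32.2, 34.6, 31.7 and 34.0 CPM in N2. Replicate 1 of the mutants was below every N2 library and the other 2 mutant libraries were above every N2 library, so the mutant SD of 4.52 CPM exceeded the N2 SD of 1.40 CPM. The log2 fold change was 0.08, with an interval of -0.14 to 0.29 (FDR = 0.648 by edgeR, and p = 0.571 by the exact permutation test). The upper ends of the intervals correspond to 0.985 times the N2 level at 20 °C and 1.22 times at 25 °C. The 2 strain differences of *fbxa-210* differed by 0.29 on the log2 scale (interval 0.02 to 0.56, unadjusted p = 0.0339), which did not pass the interaction test over 14000 genes (FDR = 0.170 by edgeR), in which 1.46% of genes passed and 24.6% had an unadjusted p under 0.05. For *fbxa-192* the same difference was 0.10 (interval -0.17 to 0.37, FDR = 0.677).

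**Figure D2:**
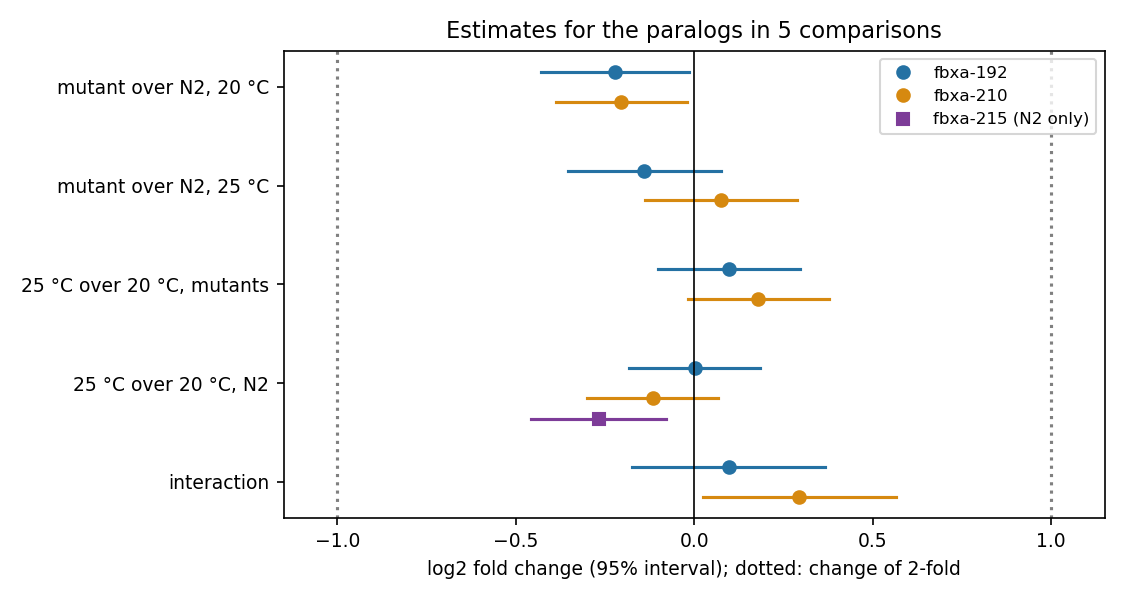
Log2 fold change (horizontal axis) of *fbxa-192* and *fbxa-210* in 5 comparisons, and of *fbxa-215* between temperatures in N2. Points are edgeR estimates, lines are approximate 95% intervals, and dotted lines mark a change of 2-fold. No interval reached 2-fold in either direction, and the interaction of *fbxa-210* had the highest upper end, 0.56.

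*fbxa-158* was close to undetected at 20 °C in both strains. It had 0, 1, 0 and 3 counts in mutants, against 1, 0, 0 and 1 counts in N2 at 20 °C, and 8, 4 and 5 counts in mutants, against 7, 2, 3 and 3 counts in N2 at 25 °C. It did not pass the filter on low counts, so the strain test above does not include it. With no filter, edgeR gave log2 fold changes of 0.41 at 20 °C (FDR = 0.872) and 0.70 at 25 °C (FDR = 0.551), and the exact permutation test gave p = 0.83 and p = 0.143. Pooled over libraries, the level in mutants was 1.45 times that in N2 at 20 °C (95% interval 0.208 to 16.02 from counting error alone) and 1.62 times at 25 °C (0.760 to 3.48), so the strains did not differ detectably at this depth.

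The summed RNA of these 3 paralogs was not higher in mutants at either temperature, and it differed by far less than the RNA of *fbxa-215* that was lost. At 20 °C the 3 paralogs summed to 53.7 ± 2.89 CPM in mutants and 63.0 ± 0.690 CPM in N2 (SD, n = 4 each), a change of -9.25 CPM, where *fbxa-215* lost 159.7 CPM. The 4 mutant libraries, at 51.0 to 57.8 CPM, all lay below the 4 N2 libraries, at 62.3 to 63.9 CPM, although each paralog alone overlapped between strains. Of single genes at 20 °C, 21.2% did not overlap between strains. At 25 °C the 3 paralogs summed to 59.9 ± 4.02 CPM in mutants (SD, n = 3) and 60.5 ± 1.93 CPM in N2 (SD, n = 4), a change of -0.588 CPM, where *fbxa-215* lost 133 CPM. The summed level of the 4 genes was thus 75.9% lower in mutants than in N2 at 20 °C and 69.0% lower at 25 °C. These sums are given as a description, without a test, since the members were chosen with earlier results known.

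Per kb of transcript, which allows levels to be compared between genes, *fbxa-215* stood far above its paralogs in N2. At 20 °C it averaged 118.8 ± 7.60 CPM per kb, against 27.2 ± 1.76 for *fbxa-210*, 21.4 ± 2.02 for *fbxa-192* and 0.0298 ± 0.0345 for *fbxa-158* (SD, n = 4). In each N2 library *fbxa-215* was 3.51 to 4.70 times the level of *fbxa-210* and 4.16 to 6.76 times that of *fbxa-192*. *fbxa-210* was above *fbxa-192* in each of the 15 libraries, by 1.09 to 1.61 times, and these ranges overlapped between the strains. *fbxa-215* was the highest of 176 *fbxa-* genes in N2 at both temperatures and made up 24.8% of their summed level per kb at 20 °C and 19.4% at 25 °C. *fbxa-210* and *fbxa-192* ranked 3 and 4 in N2 at both temperatures, after *fbxa-101*, an F-box gene without the HTH domain. In mutants *fbxa-210* ranked 2 at 20 °C and 1 at 25 °C, and *fbxa-192* ranked 3 at both. *fbxa-158* ranked between 108 and 139 in the 4 groups.

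**Figure D3:**
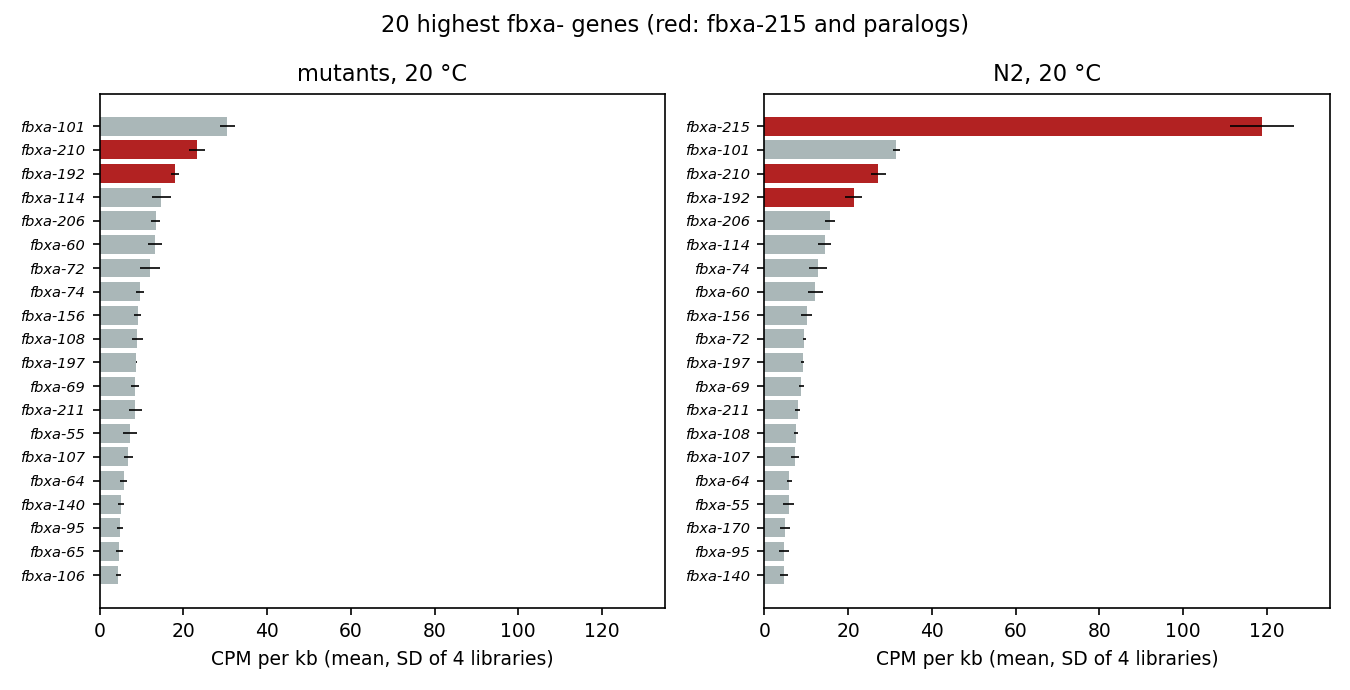
The 20 *fbxa-* genes with the highest level in CPM per kb of transcript (horizontal axis, from 0) at 20 °C, in mutants (left) and N2 (right). Bars are means and lines the SD of 4 libraries, with *fbxa-215*, *fbxa-210* and *fbxa-192* in red. *fbxa-215* heads the N2 ranking at 118.8 CPM per kb and is missing from the mutant one, where *fbxa-101* is at 30.5 CPM per kb.

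Between temperatures, *fbxa-215* was the only one of the 3 members past the filter on low counts that changed by the test over all genes, and *fbxa-158* passed where no filter was used. N2 animals had 132, 124, 131 and 144 CPM of *fbxa-215* at 25 °C, against 165.9, 167, 145 and 161 CPM at 20 °C. The 4 libraries at 25 °C were all below the 4 at 20 °C, by a narrow margin. *fbxa-215* fell by 0.27 on the log2 scale (interval -0.46 to -0.08, FDR = 0.0228 by edgeR), and the exact permutation test gave its smallest possible p of 0.0286. This is a contrast in which 45.1% of 14000 genes passed and 40.5% had groups that did not overlap. The call was lost with library sizes alone (FDR = 0.0873) and without 1 of 4 libraries: N2 replicate 1 at 20 °C (FDR = 0.0638), or N2 replicate 1 (FDR = 0.0531), 2 (FDR = 0.0870) or 3 (FDR = 0.0611) at 25 °C, all by edgeR. The permutation test of *fbxa-215* kept its result in 1 of 9 alternatives and lost it in 8. Of the 9, 8 left out 1 library, and the groups still did not overlap in CPM. With 3 libraries against 4 there are 35 divisions. The exact permutation p then stays at 0.0286 only if no other division gives as large a difference. These losses thus reflect in part the resolution of the test. In mutants the gene had 2 counts in 7 libraries, and no temperature or interaction estimate is given for it.

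*fbxa-192* and *fbxa-210* did not pass the test between temperatures in either strain. *fbxa-192* averaged 27.1 CPM in N2 at both temperatures (log2 fold change 0.00, interval -0.18 to 0.18, FDR = 0.995 by edgeR), and its sign turned under several alternatives. In mutants it averaged 24.5 ± 1.20 CPM at 25 °C (SD, n = 3) and 22.9 ± 1.19 CPM at 20 °C (SD, n = 4), a log2 fold change of 0.10 (interval -0.10 to 0.30, FDR = 0.484 by edgeR). *fbxa-210* had a log2 fold change of -0.12 in N2 (interval -0.30 to 0.07, FDR = 0.292) and of 0.18 in mutants (interval -0.02 to 0.38, FDR = 0.174), both by edgeR. In mutants 25.5% of genes passed.

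*fbxa-158*, the intestinal member, had more counts at 25 °C in both strains. The total was 17 counts in 3 mutant libraries at 25 °C, against 4 counts in 4 mutant libraries at 20 °C, and 15 counts in 4 N2 libraries at 25 °C, against 2 counts in 4 N2 libraries at 20 °C. No library at 20 °C reached the level of any library of its strain at 25 °C, and the exact permutation test gave its smallest possible p of 0.0286 in each strain. Of the genes tested, 31.6% did not overlap between temperatures in mutants and 40.5% in N2. Scaled by depth, the level at 25 °C was 7.95 times that at 20 °C in mutants (95% interval 2.59 to 32.5) and 7.13 times in N2 (1.66 to 64.2), both from counting error alone. With no filter on low counts, edgeR gave log2 fold changes of 2.86 in mutants (FDR = 0.0155) and 2.57 in N2 (FDR = 0.0353). At up to 0.699 CPM, the gene remained near the limit of detection at both temperatures. The interaction of strain and temperature, also without the filter, had an FDR of 1.00 for a log2 difference of 0.29 with a standard error of 1.96.

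Markers of the germ line, where *fbxa-215*, *fbxa-192* and *fbxa-210* are expressed, were in part lower in mutants. At 20 °C 4 of 10 germ line markers fell and the other 6 did not pass, with a median log2 fold change of -0.26, against a median of 0.02 over all genes. The 4 were *nos-2* (-0.57), *mex-3* (-0.45), *pgl-3* (-0.29) and *deps-1* (-0.26), RNA regulators and germ granule proteins. All 7 oocyte markers were lower in mutants at 20 °C, among them *cbd-1*, a component of the eggshell (-0.77), and *oma-2*, a regulator of oocyte maturation (-0.61), with a median of -0.42. At 25 °C 3 of 10 germ line markers (*glh-4*, *pgl-3*, *glh-1*) and 2 of 7 oocyte markers (*rme-2*, *puf-5*) were lower in mutants, and the medians were -0.15 and -0.19. At 20 °C the germ line count was 2 without N2 replicate 1 or mutant replicate 2, and the oocyte count stayed between 5 and 7. At 25 °C the calls in either direction rested on single libraries: without mutant replicate 1 they were 6 germ line and 5 oocyte markers, without mutant replicate 2 or 3 they were 1 and 0, and without N2 replicate 2 or 4 the oocyte count was 0. The background was 5.77% of genes lower at 20 °C and 5.12% at 25 °C, and 7.71% and 6.97% higher. Sperm markers had a median of 0.26 at 20 °C, where 1 of 10 was higher in mutants (*ssp-16*, 0.57) and the other 9 did not pass. At 25 °C their median was -0.19, and 3 of 10 were lower in mutants, the major sperm protein genes *msp-3*, *msp-38* and *msp-142*, which have near-identical copies that may share reads. Outside the germ line, 2 of 4 muscle markers were higher in mutants at 25 °C, with a list median of 0.35, and none passed at 20 °C. Of 7 intestine markers, 2 were higher in mutants at 20 °C (median 0.13), and 3 were higher and 1 lower at 25 °C (median -0.01). None of the tested hypodermis and cuticle or embryo markers passed at either temperature. In bulk samples, fewer cells of a type and less RNA per cell cannot be told apart. The summed level of the germ line list was 3062 to 3166 CPM in mutants and 3214 to 3655 CPM in N2 at 20 °C, with no overlap, as for 21.2% of single genes. Per 1000 CPM of this list, *fbxa-192* stood at 7.40 ± 0.342 in mutants and 7.82 ± 1.08 in N2, and *fbxa-210* at 9.93 ± 0.860 in mutants and 10.3 ± 0.543 in N2, at 20 °C (SD, n = 4 each), and both ranges overlapped. The part of the germ line in the values of the paralogs was not tested further.

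The same list also moved between temperatures in N2, where 7 of 10 germ line markers and all 7 oocyte markers were lower at 25 °C, with medians of -0.41 and -0.48 (22.1% of all genes were lower and 23.0% higher). Sperm markers went the other way in N2, with 6 of 10 higher at 25 °C and a median of 0.40. Per 1000 CPM of the germ line list, *fbxa-215* stood at 48.3 ± 1.44 in N2 at 25 °C and 46.1 ± 4.54 in N2 at 20 °C (SD, n = 4 each), a higher mean at 25 °C, whereas its CPM was lower there. *fbxa-210* stood at 12.1 ± 0.567 in N2 at 25 °C and 10.3 ± 0.543 in N2 at 20 °C, without overlap, as for 48.0% of genes on this scale. In mutants, where 45.6% of genes did not overlap on this scale, *fbxa-210* stood at 11.5 to 15.1 at 25 °C and 9.20 to 10.99 at 20 °C, and *fbxa-192* at 9.18 to 9.76 at 25 °C and 6.92 to 7.72 at 20 °C, both without overlap. The list itself was lower at 25 °C in mutants, at 2531 to 2623 CPM against 3062 to 3166 CPM at 20 °C. There, 8 of 10 germ line markers were lower, with a median of -0.26 (25.5% of all genes passed in either direction). In CPM neither paralog passed between temperatures in mutants. *fbxa-192* overlapped between temperatures in N2.

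Other *fbxa-* genes were also compared between strains. Of 172, 83 were tested at 20 °C, of which 1 was higher and 2 lower in mutants, and 90 at 25 °C, of which 4 were higher and 1 lower (median log2 fold changes of 0.02 and -0.05, against 0.02 and 0.00 over all genes). Over all genes 13.5% passed at 20 °C and 12.1% at 25 °C. The roles of these F-box genes are not given here. At 20 °C *fbxa-125* was higher in mutants, with 1.57 ± 0.151 CPM in mutants and 0.722 ± 0.368 CPM in N2, while *fbxa-105* was lower, with 1.61 ± 0.194 CPM in mutants and 3.05 ± 0.208 CPM in N2, as was *fbxa-170*, with 4.76 ± 0.797 CPM in mutants and 7.62 ± 1.76 CPM in N2 (SD, n = 4 each). At 25 °C *fbxa-163* was higher, by a log2 fold change of 1.56, *fbxa-61* by 1.40, *fbxa-155* by 1.27 and *fbxa-60* by 0.48, and *fbxa-197* fell by 0.53. *fbxa-60* had 23.6 ± 1.18 CPM in mutants (SD, n = 3) and 16.8 ± 1.38 CPM in N2 (SD, n = 4) at 25 °C. None of these genes passed at both temperatures, but 2 had a like estimate where they missed the threshold: *fbxa-61* at 20 °C (1.29, FDR = 0.0583) and *fbxa-105*, which had -0.91 at 20 °C, at 25 °C (-1.48, FDR = 0.0708, both by edgeR). The count at 20 °C was 1 without N2 replicate 3 or mutant replicate 1 or 2, and at 25 °C it was 11 without mutant replicate 1, 1 without mutant replicate 2, 3 without mutant replicate 3 or N2 replicate 2 or 3, and 2 without N2 replicate 4. It was 11 at 20 °C in 1 fit over the 15 libraries and 7 with DESeq2, and 9 at 25 °C with no filter on low counts. Of these 8 calls, that of *fbxa-155* held under all 16 alternatives (FDR = 0.0438 at most by edgeR or DESeq2), with 4.52 ± 0.504 CPM in mutants (SD, n = 3) and 1.87 ± 0.368 CPM in N2 (SD, n = 4) at 25 °C. *fbxa-163* is the 1 called gene with the 84-bp exon. Of the 32 other *fbxa-* genes with that exon, 14 were tested at 20 °C and 17 at 25 °C.

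The core genes of the machinery that F-box proteins bind did not pass the test between strains. *skr-1*, the Skp1-like adaptor, had 177 ± 0.973 CPM in mutants and 172 ± 5.34 CPM in N2 at 20 °C (log2 fold change 0.06, FDR = 0.474 by edgeR), and 190.1 ± 9.08 CPM in mutants and 187 ± 6.16 CPM in N2 at 25 °C (0.02, FDR = 0.842). Its copy *skr-2*, which may share reads with it, had log2 fold changes of -0.22 at 20 °C (FDR = 0.150) and 0.16 at 25 °C (FDR = 0.187). The cullin *cul-1* (-0.07 and -0.10) and the RING gene *rbx-1* (-0.09 and -0.19) did not pass either (FDRs of 0.109 to 0.459 by edgeR). At 25 °C *skr-2* (FDR = 0.0184) and *rbx-1* (FDR = 0.00996, both by edgeR) each passed in 1 of the fits without 1 library. Of 39 listed SCF genes, 35 were tested at 20 °C and 32 at 25 °C, and 1 was higher and 1 lower in mutants at each temperature, each by less than 2-fold, against the 13.5% and 12.1% of all genes that passed. The list had a summed level of 2006 to 2067 CPM in mutants and 2104 to 2276 CPM in N2 at 20 °C, with no overlap, as for 21.2% of single genes. At 25 °C it was 1821 to 1871 CPM in mutants and 1836 to 1973 CPM in N2, where the groups overlapped. The higher one was *skr-3*, another Skp1-like gene, at both temperatures (0.52 and 0.42; the count of SCF calls without 1 library was 1 to 4 at 20 °C and 0 to 9 at 25 °C, the 9 without mutant replicate 1), and the lower ones were the F-box gene *sel-10* at 20 °C (-0.22) and *ftr-1* at 25 °C (-0.61). In N2, 21 of 35 SCF genes were lower and 5 higher at 25 °C than at 20 °C, where 22.1% of all genes were lower and 23.0% higher, with *cul-1* at -0.23 (FDR = 0.00372) and *skr-2* at -0.54 (FDR = 1.25e-04, by edgeR).

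**Figure D4:**
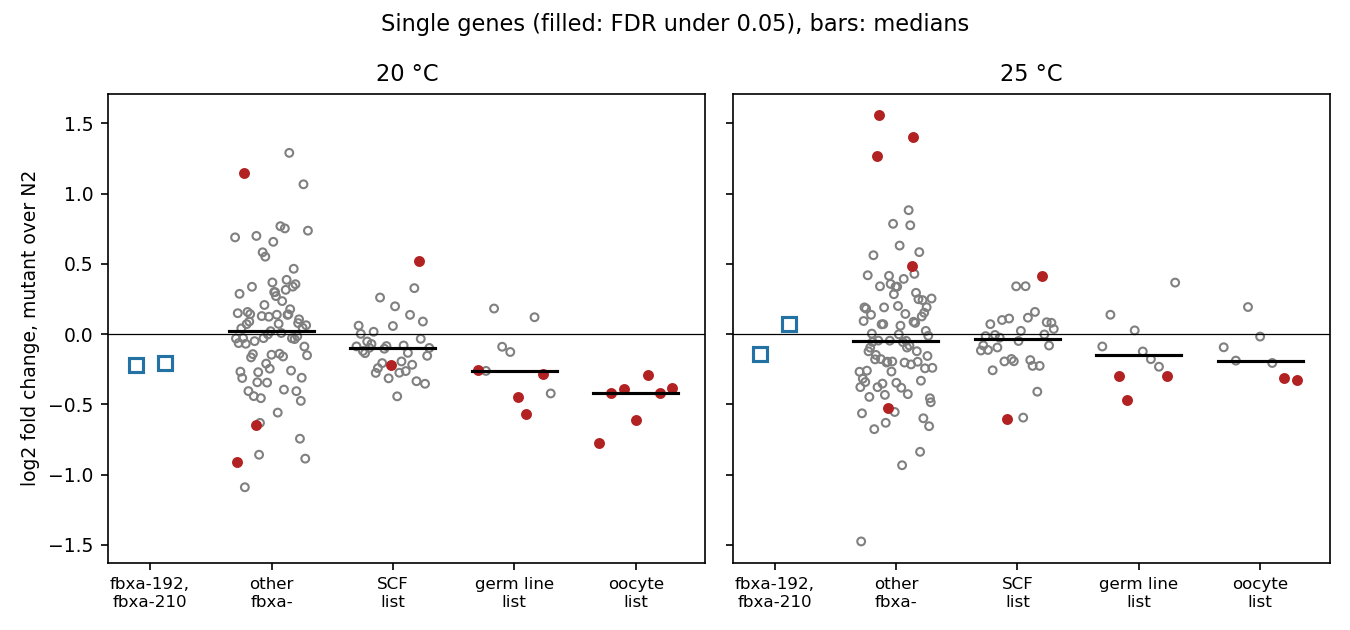
Log2 fold change of mutants over N2 (vertical axis) at 20 °C (left) and 25 °C (right). Squares are *fbxa-192* and *fbxa-210* in that order, circles are the other tested genes of each list (filled: FDR under 0.05 by edgeR), and bars are list medians. *fbxa-192* and *fbxa-210* lie at -0.22 and -0.21 at 20 °C, where the medians of the germ line and oocyte lists are -0.26 and -0.42.

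The genes whose levels ran most like each member over the 15 libraries differed from member to member. For *fbxa-215* they were *eif-2D* (Pearson r = 0.99 of log2(CPM + 1)), *C01B10.8* (0.99) and *W02B8.2* (0.93), each lower in mutants: *eif-2D*, a translation initiation factor gene, had 13.6 ± 1.08 CPM in mutants and 46.4 ± 0.879 CPM in N2 at 20 °C, and *C01B10.8* had 13.1 ± 1.45 CPM in mutants and 112 ± 4.67 CPM in N2 (SD, n = 4 each). Over the 8 N2 libraries alone the 3 nearest were *thoc-1* (0.99), *snpc-4* (0.98) and *mtx-1* (0.98). For *fbxa-192* they were *cyp-25A3* (0.80), *C06A5.12* (0.78) and *C31H2.4* (0.77). For *fbxa-210* they were the RNA interference genes *hrde-4* (0.87) and *rde-10* (0.86), and *F46F11.1* (0.86). For *fbxa-158* they were *F53H2.1* (0.94), *T05G5.1* (0.92) and *clec-60* (0.90). Between members r was 0.15 for *fbxa-192* and *fbxa-210*, and 0.70 for *fbxa-215* and *fbxa-192*, whereas over the N2 libraries alone it was -0.33. For *fbxa-215* and *fbxa-210* r went the other way, with 0.35 over the 15 libraries and 0.67 over the N2 libraries alone. All of these are descriptions: the points share strain, temperature and depth, and the genes were picked as the nearest of 13999 (14000 for *fbxa-158*).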

How the data were processed

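The 4 genes, the gene lists and the tests were chosen with earlier results of these data known. The authors trimmed reads with Trimmomatic 0.39, quantified them with salmon 1.5.1 and deposited estimated counts per gene, not normalized, from non-directional poly(A) libraries (WBcel235; the transcriptome release is not given in the sources used here). Salmon can split reads between near-identical family members, so paralog values carry that uncertainty. The deposited DESeq2 tables hold log2 expression per library, a mean normalized signal, the authors' own log2 fold changes and their adjusted p-values; only gene symbols were taken from them. Counts were rounded and tested with edgeR 4.0.16 (R 4.3.3): TMM, filterByExpr (minimum count 10, total 15), quasi-likelihood F-test, Benjamini-Hochberg adjustment, calls at FDR under 0.05. Strains were compared within each temperature, temperatures and the interaction in 1 fit over 15 libraries. Standard errors are the absolute log2 fold change over the square root of F, and intervals use them, so both are approximate. CPM use TMM library sizes, and levels per kb the longest transcript (Ensembl annotation). The alternatives were other size factors, library size alone, DESeq2 1.42.0, other filters, a replicate block, unrounded counts, protein-coding genes alone, a fold limit of 2, joint or separate fits, and leaving out each library. All tests were tried on simulated data. No 2 libraries of a group agreed within sampling noise, and 0 columns were left without a sample. Named genes were the members, the 3 genes most like each, called *fbxa-* genes (up to 5 per strain comparison), core SCF genes and marker lists; named list members beyond these were chosen after their values were seen. Relatives were taken by symbol, as protein sequences were not used here.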

Additional observations from a re-analysis of the deposited data

Results flagged for a closer look

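In 15 sets of 4 libraries examined (the 4 members and the sum of the paralogs), of which chance would mark about 1 in 20, a library stood apart in 1: replicate 2 of the mutants at 20 °C had 0.151 CPM of *fbxa-215*, 2 counts, where the other 3 mutant libraries had 0. With the others at 0, a single count would have stood apart in the same way.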

How the results depend on the processing

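In the 17 alternatives at 20 °C and 16 at 25 °C, *fbxa-192* and *fbxa-210* stayed above the limit of the strain test, with FDRs of at least 0.0628 and 0.0678 at 20 °C and 0.252 and 0.165 at 25 °C by edgeR or DESeq2: their log2 fold changes ran from -0.29 to -0.19 and from -0.26 to -0.16 at 20 °C, and from -0.20 to -0.10 and from 0.00 to 0.18 at 25 °C. The fall of *fbxa-215* held in all of them. Its lower level at 25 °C in N2 held in 19 of 24, and lost its call with library size alone (log2 fold change -0.20, FDR = 0.0873 by edgeR) and in 4 of 15 fits without 1 library. Over all 15 of these fits the log2 fold change ran from -0.30 to -0.23. The difference of *fbxa-192* between temperatures in N2, 0.00, turned to -0.031 with relative log expression size factors and with DESeq2, -0.026 with unrounded values, -0.020 with at least 10 counts in every library of a group and -0.018 with N2 alone, and ran from -0.095 to 0.057 without 1 library. On the log2(CPM + 1) scale of the permutation test it ran from -0.064 to 0.052 without 1 library. On that scale, without 1 library at 20 °C, mutants over N2 ran from -0.29 to -0.19 for *fbxa-192*, from -0.26 to -0.18 for *fbxa-210* and from -0.018 to 0.029 for *fbxa-158*. Each of the first 2 passed in 1 of these (p = 0.0286, exact), where the design allows no smaller p. Between strains at 25 °C such tests could not pass. Between temperatures in N2, *fbxa-215* ran from -0.31 to -0.20 on that scale over 9 alternatives. It kept the result of its permutation test in 1 of them and lost it in 8. Of the 9, 8 left out 1 library, where the exact permutation p stays at 0.0286 only if no other division gives as large a difference. *skr-1* at 25 °C ran from -0.024 to 0.053 without 1 library.

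Counts of genes moved more than the members did. With FDR under 0.05 and a fold change above 2, 195 genes passed at 20 °C (of 1769), 260 at 25 °C (of 1634), 922 between temperatures in N2 (of 6310) and 444 in mutants (of 3573). In 1 fit over the 15 libraries, 2746 genes passed between strains at 20 °C. The interaction called 205 genes, against 1055 with DESeq2 and 310 with at least 10 counts in every library of a group. Without 1 library the counts ran from 579 to 2247 between strains at 20 °C, from 474 to 3518 at 25 °C, from 2089 to 3964 between temperatures in mutants and from 12 to 1604 for the interaction, the highest without replicate 4 of the mutants at 20 °C. With library size alone the share of calls that were higher was 68.7% at 20 °C, against 57.2% with TMM, 62.6% between temperatures in N2, against 51.0%, and 65.5% in mutants, against 53.3%. The paralogs of N2 at 20 °C then summed to 60.8 CPM. The causes were not tested.

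With the replicate number as a block, 528 genes passed between strains at 20 °C, 391 at 25 °C and 20 for the interaction. Same-numbered libraries of the 2 strains deviated together in 1 of 7 pairs (correlations of -0.32 to 0.22). Pairs of unlike number ran from -0.39 to 0.43, so these correlations cannot decide whether a shared number marks a shared culture or batch. The labels do not say it either. The block changed no call of *fbxa-215*, *fbxa-192* or *fbxa-210*. Of the 8 calls of other *fbxa-* genes it kept that of *fbxa-155*. Relatives by protein sequence were not run. Depth limits *fbxa-158*, with at most 8 counts in a library.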
